A study of Homo sapiens with 4 samples.

Results

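The keratin genes KRT7, KRT8, KRT10, KRT17, KRT18, KRT19, KRT80, KRT81 and KRT86 and the hair keratin-associated protein gene KRTAP2-3 were followed, 10 of the 28930 gene symbols in the counts table. They were chosen from the keratin family by symbol, with their counts and their knockdown-against-control values already known, so their levels, fold changes and calls are given as a description and support no test. The libraries were made from total RNA of MDA-MB-231, an established human line of triple-negative breast carcinoma with mesenchymal features. Of the 4 libraries, 2 were labelled control (control replicates 1 and 2). The other 2 were from cells given an siRNA against hTrmt13 (knockdown replicates 1 and 2). All were of the same line with no other treatment named, and the sample descriptions name an siRNA for the knockdown alone. hTrmt13, encoded by TRMT13, is a tRNA methyltransferase that the study also examines as a regulator of transcription, and the contrast addresses which genes respond to its loss. No source used here gives the siRNA sequences, doses or times, and with 1 knockdown label the reduction of hTrmt13 cannot be told apart from other effects of its siRNA.

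Keratins are the intermediate filament proteins of epithelial cells. They polymerise only as heteropolymers of a type I chain with a type II chain, so the levels of the partner genes are usually read together. KRT8 (type II) and KRT18 (type I) form the filaments of simple epithelia, and KRT7 (type II) and KRT19 (type I) join them in ductal and glandular epithelia. KRT80 is a type II keratin of differentiating epithelia, KRT10 a type I keratin of suprabasal epidermis, KRT17 a type I keratin of basal and injured epithelia, and KRT81 and KRT86 are type II keratins of the hair cortex. KRTAP2-3 encodes a small cysteine-rich protein of the family that cross-links hair keratins. The annotation puts 6 of the 10 genes on chromosome 12, in the type II cluster with KRT18 beside KRT8, and 4 on chromosome 17, in the type I cluster that also holds the KRTAP2 genes.

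KRTAP2-3 was the member with the largest difference, and the sequence before its start is shown beside that of its 3 closest relatives because they share a TATA box while their counts differ. Each line gives 80 bases of the minus strand from the RefSeq promoter table (GRCh38.p14), from 50 bases before the box to 30 bases from its first letter, and all of them end before the annotated start of the gene. The capitals mark TATATAAA, and the lines are KRTAP2-3 at chr17:41060115-41060194, KRTAP2-4 at chr17:41065910-41065989, KRTAP2-2 at chr17:41055276-41055355 and KRTAP2-1 at chr17:41047332-41047411.
KRTAP2-3: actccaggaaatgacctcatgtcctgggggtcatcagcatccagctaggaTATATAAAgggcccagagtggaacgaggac
KRTAP2-4: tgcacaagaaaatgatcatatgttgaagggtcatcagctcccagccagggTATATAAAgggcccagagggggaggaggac
KRTAP2-2: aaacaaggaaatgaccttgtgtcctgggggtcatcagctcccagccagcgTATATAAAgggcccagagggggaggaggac
KRTAP2-1: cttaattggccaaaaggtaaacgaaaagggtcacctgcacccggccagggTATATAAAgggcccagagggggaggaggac

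From the first letter of the box onward, KRTAP2-3 differed from each of the other KRTAP2 genes at 3 of 30 positions. In the 50 bases before the box it differed from KRTAP2-2 at 10 positions, from KRTAP2-4 at 25 and from KRTAP2-1 at 29. TATATAAA, searched on both strands in the 250 bases before the annotated start, occurred in 372 of 35116 promoters of the table (1.06%). Of the 3 members with an entry there, KRTAP2-3 and KRT10 held 1 match each. A match is a run of letters and not a shown site of binding.

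Library totals lay between 9777267 and 13098985 counts, and 1 CPM (a count scaled to its library's total and TMM factor) stood for 9.58 to 13.4 counts. TRMT13 had 14.9 and 18.9 CPM in control against 3.52 and 4.79 CPM in knockdown, in the direction of every label. As a check of the line, VIM (vimentin) stood between 1769 and 1845 CPM in all 4 libraries, ESR1 and PGR had no count and CDH1 (E-cadherin) had 1 count in each group. CD44 and AXL, also markers of this line, were high in every library but lower in knockdown. CD44 stood at 273 and 273 CPM in control and at 156 and 160 CPM in knockdown (log2 fold change −0.79). AXL stood at 900 and 1097 CPM in control, against 585 and 625 CPM in knockdown (−0.72), and edgeR called neither. Errors are SDs of 2 libraries, and log2 fold changes are knockdown minus control with the SE of the edgeR quasi-likelihood fit over all genes tested.

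In the control cells the 4 simple-epithelial keratins made up most of the keratin RNA. KRT7, KRT8, KRT18 and KRT19 together reached 2091 and 1819.5 CPM in control and came to 1540.1 and 1285 CPM in knockdown, between 87.5% and 89.5% of the summed keratin members in every library. Levels were compared between genes as CPM per kilobase of the principal GENCODE v29 transcript, since longer transcripts collect more reads. On that scale the control cells held KRT7 at 319 ± 46.0, KRT8 at 311 ± 22.5, KRT18 at 276 ± 21.3 and KRT19 at 218 ± 21.5 (SD, n = 2). KRT7 and KRT8 overlapped between libraries, and the steps from KRT8 to KRT18, KRT18 to KRT19, KRT19 to KRT80 and KRT80 to KRT10 were larger than the spread of the control libraries. KRT80 followed at 55.2 ± 5.50 and KRT10 at 8.72 ± 3.37. KRT81 (1.12 ± 0.399), KRT86 (0.897 ± 0.529) and KRTAP2-3 (0.667 ± 0.0685) lay at about the same low level, and KRT86 overlapped with both of the others.

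The order was another one in the knockdown cells. KRT8 came first at 256 ± 24.7 CPM per kilobase, KRT19 (209.9 ± 5.03) and KRT18 (206 ± 25.9) overlapped behind it, and KRT7 was in the fourth place at 146 ± 45.8 (SD, n = 2). KRTAP2-3, at 14.5 ± 0.740, lay above KRT10 at 11.2 ± 1.10, with no overlap between their libraries. The order between genes is uncertain where transcripts share sequence, as those of KRT8 and KRT18 do.

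**Figure D1:**
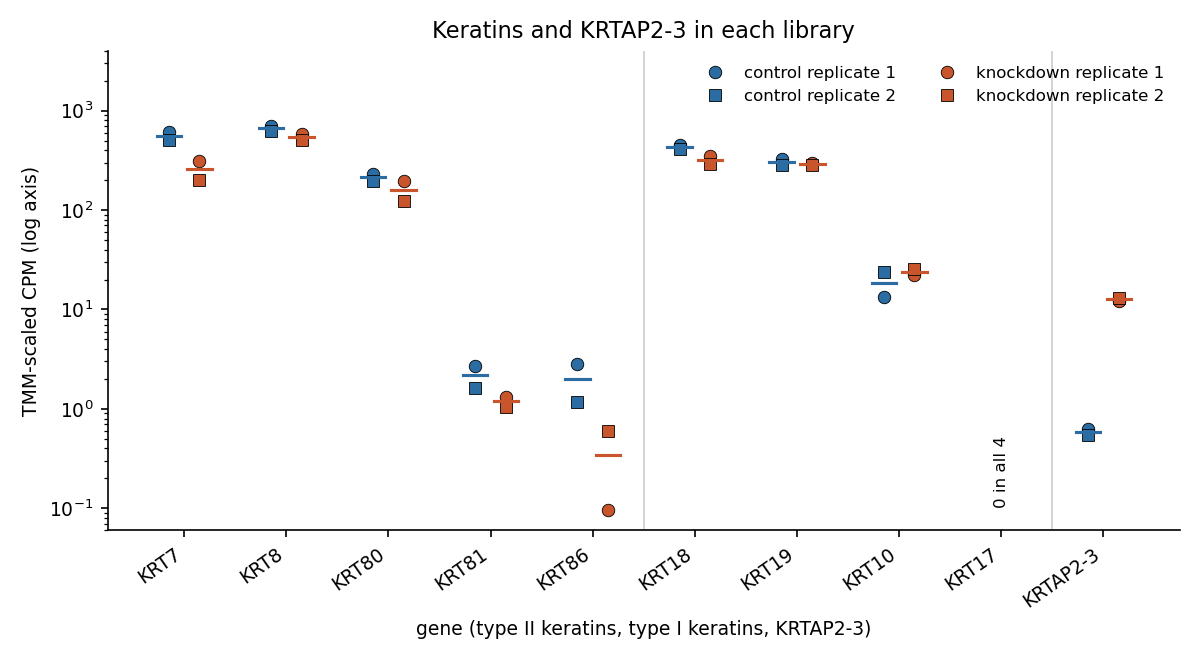
TMM-scaled CPM of each member (log axis) in the 2 control libraries (blue) and the 2 knockdown libraries (orange), circles for replicate 1 and squares for replicate 2, with short lines at the group means. KRTAP2-3 lies at 12.3 and 13.2 CPM in knockdown against 0.626 and 0.541 CPM in control, KRT7 has no overlap between the groups, KRT19 and KRT10 overlap, and KRT17 has no count.

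KRTAP2-3 had 6 and 7 counts in the control libraries and 129 and 176 counts in the knockdown libraries. In CPM these are 0.626 and 0.541 in control and 12.3 and 13.2 in knockdown, so the groups were far apart. The control counts are too few to show how close the control libraries lie. The log2 fold change was 4.43 (SE 0.40), and KRTAP2-3 was the 1 member called changed at a Benjamini-Hochberg adjusted p under 0.05. Since 13 counts stand behind the control level, the depth-scaled ratio of 22.1 has a 95% exact binomial interval of 12.7 to 42.0, which covers counting error only. The gene passed the filter on low counts through the knockdown libraries alone, where it is high. In a bulk sample a larger share of cells that express a gene cannot be told apart from more RNA per cell.

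The relatives of KRTAP2-3 did not share its counts. KRTAP2-1 and KRTAP2-2 had no count in any library, and KRTAP2-4 had 1 count, in knockdown replicate 1. A count of 0 allows up to 3 counts, which is 0.225 to 0.313 CPM per library. The transcripts are close copies in part: 39.7% of the 50-base windows of KRTAP2-3 occur in another KRTAP2 transcript of GENCODE v29, most of them in KRTAP2-4. Reads from such windows may be dropped or placed on either gene, so the level of KRTAP2-3 is uncertain to that extent. The share was larger for its relatives, at 52.6% for KRTAP2-4, 63.8% for KRTAP2-1 and 83.9% for KRTAP2-2, so their counts and the limit of 3 counts hold only for reads that the counting could place. Among all 93 other keratin-associated protein genes in the table, 85 had no count and none of the other 8 had more than 3 counts over the 4 libraries.

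Several genes had a profile like that of KRTAP2-3 over the 4 libraries. By Euclidean distance between log2 CPM values centred on each gene's mean (prior count 2), the nearest tested genes with a known symbol were MYPN (distance 0.689), FILIP1L (0.794), CPA4 (0.819), SLITRK6 (0.821) and RSPH1 (1.12). MYPN, which encodes the sarcomeric protein myopalladin, stood at 0.313 and 0.541 CPM in control and at 6.47 and 8.09 CPM in knockdown. CPA4, a carboxypeptidase gene, stood at 2.82 and 1.86 CPM in control and at 34.1 and 22.5 CPM in knockdown. RSPH1, which encodes a protein of ciliary radial spokes, had no count in control and 16 and 14 counts in knockdown. MYPN, SLITRK6 and RSPH1 passed the filter on low counts through the knockdown libraries alone, where they are high. All of these nearest genes were picked for this pattern, over 4 libraries in 2 groups, so the likeness is a description.

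Among the type II keratins KRT7 showed the largest difference of those with high counts. It stood at 616 and 502 CPM in control and at 313 and 199 CPM in knockdown, from 5900 and 6486 counts in control and 3288 and 2658 counts in knockdown. Both knockdown libraries lay below both control libraries. The group means were 559 ± 80.7 and 256 ± 80.3 CPM (SD, n = 2), a level 2.18-fold lower in knockdown (log2 fold change −1.13, SE 0.28). The edgeR fit did not call KRT7, while DESeq2 on the same genes did (log2 fold change −1.13). Without knockdown replicate 2 the log2 fold change was −0.84 and without knockdown replicate 1 it was −1.48, since knockdown replicate 2 holds the lower level. GENCODE v29 has an antisense gene, KRT7-AS, over 12.6% of the exon bases of KRT7, and without a stated strand setting its reads may not be kept apart.

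KRT8 had a smaller difference than KRT7. It stood at 696 and 628 CPM in control and at 581 and 507 CPM in knockdown. The groups did not overlap, but the fit did not call the difference (log2 fold change −0.28, SE 0.20). KRT80 stood at 228 and 198 CPM in control and at 196 and 124 CPM in knockdown. Knockdown replicate 1 lay just under control replicate 2, and knockdown replicate 2 lay well below both. Its log2 fold change was −0.41 (SE 0.27) and was not called, and it was −0.12 without knockdown replicate 2.

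The hair keratins KRT81 and KRT86 had few counts. KRT81 had 26 and 21 counts in control and 14 and 14 in knockdown, and KRT86 had 27 and 15 in control and 1 and 8 in knockdown. For both, every knockdown library lay below every control library in CPM. The log2 fold changes were −0.85 (SE 0.48) for KRT81 and −2.37 (SE 0.81) for KRT86, and neither was called. Without control replicate 1 the value for KRT81 was −0.45, and without control replicate 2 it was −1.19. Control over knockdown, the depth-scaled ratio was 1.78 (95% exact binomial counting interval 1.09 to 2.95) for KRT81 and 4.95 (2.37 to 11.6) for KRT86. KRT86 passed the filter through the control libraries alone, and the value without knockdown replicate 2, −4.21, rests on 1 count.

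KRT81 and KRT86 are close copies. Of the 50-base windows of KRT81, 44.6% occur in another gene's transcript, 38.4% in KRT86, and the aligned transcripts were 88.2% identical. With their counts added up as 1 gene the level was 5.53 and 2.78 CPM in control, against 1.43 and 1.65 CPM in knockdown, a log2 fold change of −1.41 (SE 0.48) that was not called. KRT83, another hair keratin that shares windows with both, had 2 counts in control replicate 1 and none elsewhere.

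Among the type I keratins KRT18 stood at 455 and 408 CPM in control and at 349.6 and 292 CPM in knockdown. All knockdown values lay below all control values, and the difference was not called (log2 fold change −0.43, SE 0.21). KRT19 stood at 324 and 282 CPM in control and at 297 and 287 CPM in knockdown, with both knockdown libraries inside the control range. Its log2 fold change was −0.05 (SE 0.20), and it was 0.05 without control replicate 1, so no direction can be given for KRT19. KRT10 stood at 13.5 and 23.6 CPM in control and at 22.2 and 25.5 CPM in knockdown. The groups overlapped, control replicate 1 being the low library, and the log2 fold change of 0.36 (SE 0.33) was not called and came to 0.02 without that library.

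KRT17 had no count in any of the 4 libraries, and it was not tested. The limit of 3 counts that a 0 allows per library holds only if the submitters' counting kept reads of KRT17, which was not tested. Its GENCODE v29 transcript has no exon overlap with another gene, and 16.0% of its 50-base windows occur in KRT14, KRT16 or 1 of 4 KRT17 pseudogenes. At 100 bases the share was 0.322%. The read length and the submitters' gene models are not known from the sources used here.

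In all, 9 of the 10 members were tested, 1 was called higher (KRTAP2-3) and 0 lower in the edgeR fit. At an unadjusted p under 0.05 it was 1 higher and 2 lower (KRT7 and KRT86), DESeq2 called 2 members and limma voom 1. With the replicate number as a block, an alternative, edgeR called 4 members lower (KRT7, KRT18, KRT80 and KRT86). That fit called 2710 of all 13022 genes tested lower. Over all 13022 genes tested the edgeR fit called 2.99%, 1.03% higher and 1.96% lower. Of the same genes 24% had an unadjusted p under 0.05, DESeq2 called 8.67% and limma voom 2.5%, and these shares are the background for every list count given further on. The libraries of the groups did not overlap in 7 of the 9 tested members, 6 of them lower in knockdown (KRT7, KRT8, KRT18, KRT80, KRT81 and KRT86), while 54.3% of all genes tested showed such a separation in either direction. Nothing is read from these counts, since the members were chosen with the contrast known.

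**Figure D2:**
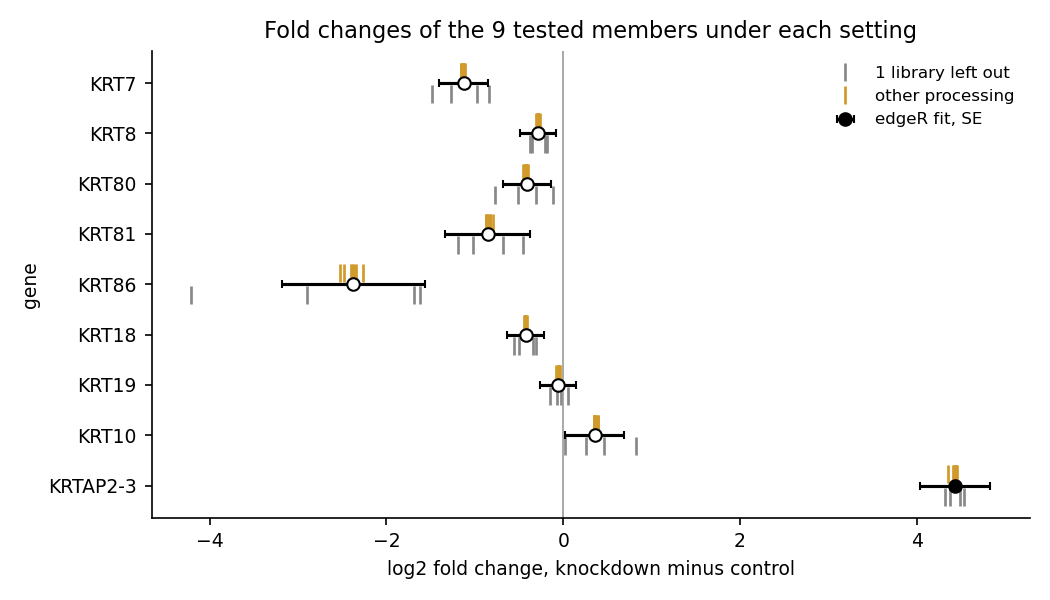
Log2 fold change (knockdown minus control) of the 9 tested members with the SE of the edgeR fit, filled where called. Grey marks leave out 1 library each and yellow marks are the other processing settings; KRTAP2-3 stays between 4.32 and 4.53, KRT86 spreads from −4.21 to −1.63, and KRT19 lies on both sides of 0.

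Ratios between keratins within a library do not depend on the scaling of the libraries. KRT7 to KRT8, per kilobase, was 1.07 and 0.968 in control and 0.652 and 0.476 in knockdown. KRT7 to KRT19 was 1.51 and 1.41 in control and 0.835 and 0.550 in knockdown. In both ratios the groups did not overlap, and knockdown replicate 2 was the lower library.

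The partners KRT8 and KRT18 stayed closer to each other. Their ratio was 1.12 and 1.13 in control and 1.22 and 1.27 in knockdown, with means of 1.13 ± 0.0058 and 1.25 ± 0.0367 (SD, n = 2). KRT19 to KRT18 was 0.801 and 0.777 in control and 0.954 and 1.10 in knockdown. Summed over the members, type II to type I keratin was 1.39 and 1.33 in control and 1.12 and 0.949 in knockdown. The groups did not overlap in any of these ratios either, KRT8 to KRT18 included. They did overlap in KRT80 to KRT8, which was 0.1805 and 0.1736 in control and 0.1859 and 0.1345 in knockdown. How often ratios of other genes separate the groups was not tested. Among the type II members the mean of KRT7 went from 319 to 146 CPM per kilobase, that of KRT8 from 311 to 256 and that of KRT80 from 55.2 to 41.4.

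**Figure D3:**
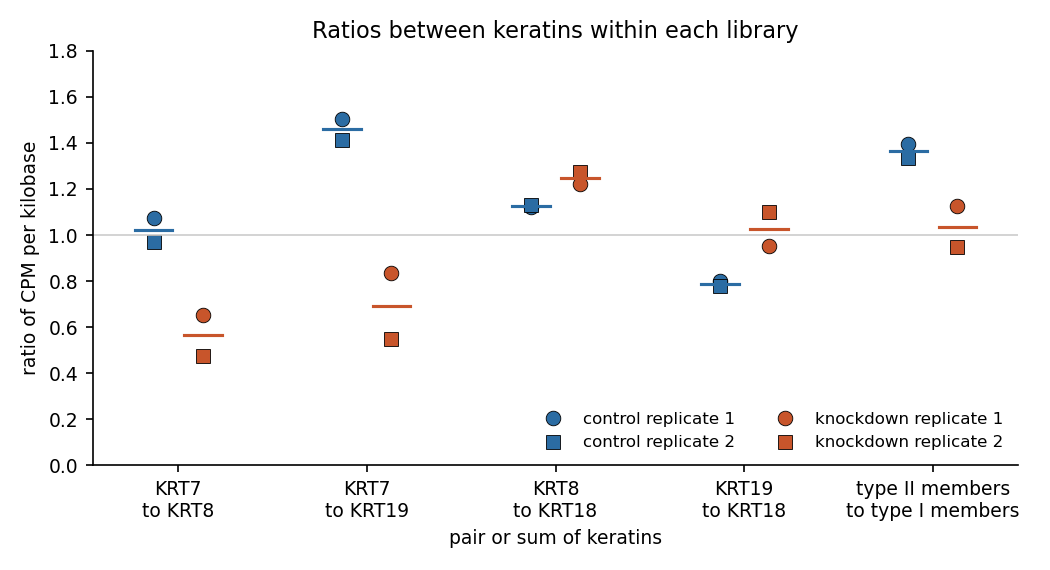
Ratio of CPM per kilobase between keratins in each library (control blue, knockdown orange; circles replicate 1, squares replicate 2; short lines are group means). KRT7 to KRT8 is 1.07 and 0.968 in control and 0.652 and 0.476 in knockdown. KRT8 to KRT18 runs only from 1.12 to 1.27 over the 4 libraries, with no overlap between the groups.

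Some members share sequence or exon bases with other genes of GENCODE v29, which is not the submitters' annotation. KRT18 and KRT8 lie head to head, and 24.0% of the exon bases of the KRT18 transcript lie under exons of KRT8 on the opposite strand. Of the 50-base windows, 47.6% of KRT18 and 36.9% of KRT8 occur in another gene, with 45 and 42 genes that share at least 1 window, most of them named as KRT18 or KRT8 pseudogenes. For KRT19, KRT80 and KRT10 the share was 1.79%, 0.420% and 0.434%. At 100 bases it was 16.6% for KRT18 and 7.75% for KRT8, so what is shared depends on the read length.

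Of 46 other keratin genes in the table, 31 had no count. The stratified and basal keratins KRT1, KRT5 and KRT6A were among those at 0, and KRT14 had 1 count. KRT15, a type I keratin of basal epithelium, and KRT222 were tested. KRT15 stood at 17.1 and 10.5 CPM in control and at 8.75 and 7.27 CPM in knockdown (log2 fold change −0.78, SE 0.35, edgeR adjusted p = 0.236), and its log2 fold change was −0.39 without control replicate 1. KRT222 stood at 0.835 and 0.696 CPM in control and at 1.81 and 2.77 CPM in knockdown (1.59, SE 0.49, edgeR adjusted p = 0.12), and 57.8% of its 50-base windows also occur in AC073508.2. Neither passed the test in edgeR, DESeq2 or limma voom, and 1 (KRT222) had an unadjusted p under 0.05. KRT222 had 8 and 9 counts in control and 19 and 37 in knockdown. It passed the filter on low counts through the knockdown libraries alone, where it is high. The hair keratin KRT34 had 4 counts in control and 13 in knockdown and was not tested.

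Other parts of the filament system are given from lists of related genes. Of 11 other intermediate filament genes tested, 0 rose and 1 fell in edgeR, with a median log2 fold change of 0.02. DES, the muscle filament gene desmin, fell from a mean of 6.07 ± 2.24 CPM to 0.887 ± 0.0898 (SD, n = 2; adjusted p from edgeR 0.0399), and it was not called once knockdown replicate 2 was left out (adjusted p = 0.0501). DES had 43 and 99 counts in control and 10 and 11 in knockdown. Only in control, where it is high, did both libraries reach the filter on low counts. VIM, the main filament gene of this line, had a log2 fold change of 0.02 (SE 0.19). At an unadjusted p under 0.05 it was 1 higher and 1 lower, and DESeq2 and limma voom called 1 each. The median over all genes tested was 0.0053.

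Of 13 genes for proteins that anchor or link keratin filaments, 0 rose and 1 fell in edgeR, with a median log2 fold change of −0.44. At an unadjusted p under 0.05 it was 2 higher and 4 lower, and DESeq2 called 2 and limma voom 1. DSP, which encodes the desmosomal plaque protein that binds keratin, stood at 216 and 182 CPM in control and at 71.7 and 93.0 CPM in knockdown (log2 fold change −1.27, SE 0.24, edgeR adjusted p = 0.0456). That call ended with scaling by library size alone (adjusted p = 0.0502) and without control replicate 1 (0.06). Of 20 genes for keratin-binding, modifying or degrading proteins, 2 passed the test in edgeR (median 0.05). Here 2 were higher and 4 lower at an unadjusted p under 0.05, and DESeq2 called 5 and limma voom 2. DNAJB6, a co-chaperone that binds KRT18 protein, fell 2.32-fold, from a mean of 261 ± 7.46 CPM to 113 ± 14.5 (SD, n = 2; adjusted p from edgeR 0.0418).

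Of 20 transcription factor genes known to act on keratin genes, 1 rose and 1 fell in edgeR (median −0.13). With an unadjusted p under 0.05 there were 4 higher and 8 lower, and DESeq2 called 5 and limma voom 1. NR3C1, the glucocorticoid receptor gene, rose 2.68-fold, from a mean of 75.2 ± 7.30 CPM to 202 ± 27.0 (SD, n = 2; adjusted p from edgeR 0.0363). ELF3, an epithelial ETS factor gene, fell from a mean of 5.87 ± 3.81 CPM to 0.405 ± 0.169 (SD, n = 2; adjusted p from edgeR 0.0435), and limma voom did not call it (adjusted p = 0.0606). ELF3 had 82 and 41 counts in control and 3 and 7 in knockdown. It passed the filter on low counts through the control libraries alone, where it is high. Of 29 cornification genes, 21 had no count and the 2 tested, CNFN and TGM1, stood at log2 fold changes of 0.78 and 0.23, with 0 called by edgeR, DESeq2 or limma voom and 0 at an unadjusted p under 0.05. CNFN came to 0.20 without knockdown replicate 1 and to 1.58 without control replicate 1.

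Of 24 tested genes that flank the keratin clusters, 0 rose and 1 fell in edgeR (median −0.03). At an unadjusted p under 0.05 it was 3 higher and 2 lower, and DESeq2 called 3 and limma voom 1. TNS4, an epithelial tensin gene near the type I cluster, stood at 44.8 and 23.4 CPM in control and at 4.85 and 3.97 CPM in knockdown (log2 fold change −2.95, SE 0.40, edgeR adjusted p = 0.0295).

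**Figure D4:**
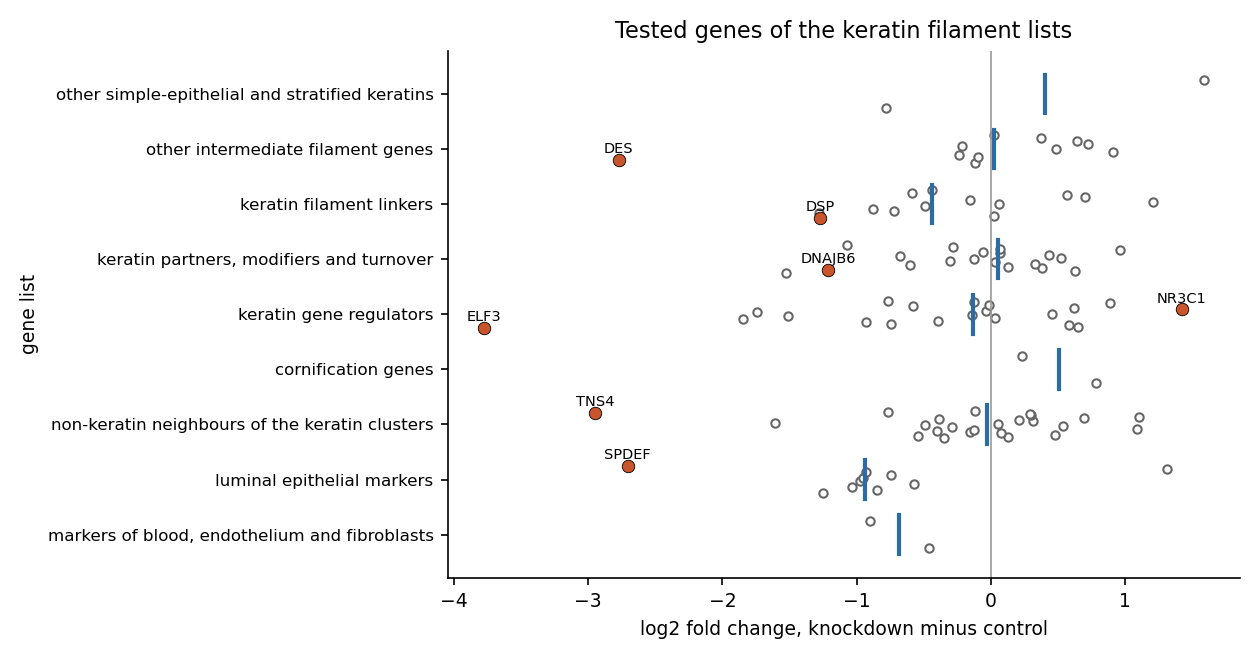
Log2 fold change (knockdown minus control) of tested genes in 9 lists; filled circles with names were called by the edgeR fit, blue bars are list medians. DES, DSP, DNAJB6, ELF3, TNS4 and SPDEF were called lower and NR3C1 higher, and the luminal list has its median at −0.94.

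Markers of luminal epithelium mostly had lower values in the same libraries as KRT7. Of 15, 10 were tested and 9 of these had a negative value, with a median log2 fold change of −0.94. Among all genes tested 50.4% had a positive value. Their summed level was 365 and 243 CPM in control, against 158 and 115 CPM in knockdown, and CLDN4 and AGR2 were the highest of the 15 in every library. SPDEF, an epithelial ETS factor gene, was the 1 called (log2 fold change −2.71, SE 0.42, edgeR adjusted p = 0.0357), and MUC1 was the 1 tested gene with a positive value. At an unadjusted p under 0.05 it was 1 higher and 6 lower, and DESeq2 called 3 and limma voom 1. GATA3 and FOXA1 are also in the list of transcription factor genes and count among the lower genes of both lists. The 2 lists are therefore not separate observations, and JUP is likewise in both the linker and the neighbour list. ESR1 and PGR were at 0 and EPCAM stood at 3.55 and 6.34 CPM in control and at 2.19 and 2.85 CPM in knockdown. Markers of blood, endothelium and fibroblasts came to a sum of 72.7 and 58.6 CPM in control, against 52.1 and 34.2 CPM in knockdown, mostly COL1A1 and PDGFRB. CD3E, HBB, HBA1, CLDN5 and DCN had no count, and of the 2 genes tested edgeR, DESeq2 and limma voom called 0, with 1 at an unadjusted p under 0.05. The part of either marker list in the keratin values was not tested.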

How the data were processed

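RNA-seq gene counts of 2 control and 2 knockdown libraries of MDA-MB-231 were used. The deposited values are raw counts per gene symbol, not normalized, with a different total in each library. Per the submitters' processing notes the tools include STAR 2.5.2b, HTSeq 0.6.1, cutadapt and limma, with hg19 and GRCh37 as builds and no role for any of them. Annotation, strand setting and read length were not given in the sources used here.

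Groups came from the sample labels. Counts were fitted with edgeR 4.0.16 (R 4.3.3; TMM, filterByExpr with minimum count 10 and total 15, quasi-likelihood test, no covariate) over 13022 genes, with Benjamini-Hochberg adjustment and a threshold of 0.05. The SE is the log2 fold change over the root of the F statistic. Alternatives used DESeq2 1.42.0, limma 3.58.1 (voom), other scalings and filters, the replicate number as a block and each library left out. Members and lists were chosen with earlier results of these data known; lists for keratin pseudogenes and antisense genes matched no symbol, and 1 called gene of the partner list is not reported here or plotted. Beside the members, named genes were up to 4 called genes per list by adjusted p, or up to 2 with the smallest p. The nearest profiles to KRTAP2-3, close copies of members and label checks were named too. KRT1, KRT5, KRT6A, KRT14, CLDN4, AGR2, MUC1, GATA3, FOXA1 and JUP were added after their values were seen. Transcript lengths, shared windows (50 bases, and 100 bases as an addition after seeing the data) and exon overlaps came from GENCODE v29 (GRCh38), and promoters from RefSeq, with entries for 3 of the 10 members.

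Libraries of a group differed by more than sampling noise (chi-square over degrees of freedom 40.4 and 44.5, genes averaging 20 counts or more), and each counted as 1 sample. Nothing in the labels says that they were separate cultures, so the p-values cover the spread of these samples alone, and it may be technical.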

Additional observations from a re-analysis of the deposited data

How the results depend on the processing

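KRTAP2-3 was called higher under all 12 alternatives, with log2 fold changes from 4.32 to 4.53, and stayed the 1 member called higher. The edgeR counts were 134 genes higher and 255 lower, with 0 members lower. They were 826, 1123 and 2 with no filter on low counts, 458, 671 and 1 in DESeq2, and 198 to 363, 407 to 572 and 0 to 2 when 1 library was left out. The members past the threshold there were KRT7 (no filter, DESeq2, without control replicate 2, without knockdown replicate 1) and KRT86 (no filter, without control replicate 2). KRT19 ran from −0.15 to 0.0535 with 1 library left out and changed sign without control replicate 1. The cause of these moves was not tested.

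For the lists of other filament, linker, partner, regulator, neighbour and luminal genes, with 1, 1, 2, 2, 1 and 1 called in the edgeR fit, the numbers called were 2, 2, 5, 6, 5 and 4 with no filter. In DESeq2 linkers had 2, partners 5, regulators 5, neighbours 3 and luminal genes 3. With 1 library left out they were 1 to 2, 0 to 2, 4 to 4, 3 to 3, 1 to 3 and 1 to 3. At a mean of at least 5 CPM the filament list had 0 and the regulators 1. DES and ELF3 fell under that filter and were not tested there. With library size alone the linkers had 0, and in limma voom the regulators had 1.

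Labels give both groups replicate numbers 1 and 2, and libraries of equal number deviated together (r = 0.639 across genes, which are not independent), and the titles carry consecutive serial numbers within each replicate number. With 2 pairs and no label that says what a number shares, a pairing is a hint from the data and the block is given as an alternative. With the replicate block 2517 genes were higher and 2710 lower, and 4 members were called lower (KRT7, KRT18, KRT80 and KRT86). The block called 2 other keratins (KRT15 and KRT222), 5 other filament genes, 8 linkers, 9 partners, 14 regulators, 8 neighbours, 9 luminal markers and 2 markers of blood, endothelium and fibroblasts. Of the 5 genes nearest to KRTAP2-3, 5 were shared at a prior count of 0.5 and 4 at a prior count of 5. KRT81, KRT86 and the control level of KRTAP2-3 rest on at most 47 counts per group. The changes of KRT81 and KRT86 and the control level of KRTAP2-3 are therefore poorly resolved at this depth. The size of the KRTAP2-3 rise carries the counting error of that level.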
